A study of Mus musculus with 21 samples.

Results

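The cytosolic ribosomal proteins are the protein parts of the ribosome that works in the cytoplasm, and their genes were taken by name. The rule kept every symbol that starts with Rpl or Rps and a digit, with Rplp0, Rplp1, Rplp2 and Rpsa, and left out pseudogene symbols and the S6 kinases, whose symbols begin with Rps6k. It found 68 of the 19505 genes measured: 33 proteins of the large subunit, 22 of the small subunit, and 13 paralogs and other genes whose names fit the rule. They were followed in mouse CD8+ T cells on 21 Affymetrix arrays, 7 for each of 3 culture media. T cells from wildtype mouse spleens received CD3/CD28 Dynabeads as the stimulus, in complete RPMI to which 2-ME had been added. The first group received supernatant of WEHI 3B cells, a mouse myelomonocytic line that stands in for acute myeloid leukaemia (AML). The second received supernatant of bone marrow derived dendritic cells (DC), and the third, the control, fresh medium. Both supernatants had stood on their cells for 48 h and were passed through a sterile filter, and in all 3 groups CD8+ T cells were separated again by MACS, a magnetic sort, 48 h into the culture. WEHI 3B is a single cell line, so it stands for 1 leukaemia. The replicate numbers 1 to 7 are not said to mark the same mouse or day in the different media, and 1 label field names a reticular cell type where all others name CD8+ T cells.

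Each ribosome holds 1 copy of most of these proteins, so cells make them in matched amounts, and T cells that leave rest after stimulation build many more ribosomes. Most of the mRNAs begin with a C followed by a run of pyrimidines, the terminal oligopyrimidine (TOP) tract, through which the kinase mTORC1 and the protein Larp1 set how well they are translated. Their output is therefore controlled largely at translation, which RNA levels do not show.

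The tract can be read at the annotated gene starts. RefSeq windows on GRCm38.p6 that run from 250 bases before to 50 bases after an annotated start were matched for 55 of the 68 genes, with 66 windows in all because some genes have several starts. A tract, searched on the gene's strand as a C at the start followed by at least 4 further C or T, stood at 13 of the 66 starts (19.7%), against 2.51% of the 32851 windows of all genes. The examples below show 10 bases before and 20 bases from the start, with the tract in capitals, for genes of both subunits and for 1 retrogene that keeps the tract.
Rps6, chr4:86857348-86857377, minus strand: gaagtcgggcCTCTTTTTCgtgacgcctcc
Rps10, chr17:27635225-27635254, minus strand: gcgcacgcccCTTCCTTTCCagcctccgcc
Rps15a, chr7:118116128-118116157, minus strand: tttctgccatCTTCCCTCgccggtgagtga
Rps27rt, chr9:114982720-114982749, minus strand: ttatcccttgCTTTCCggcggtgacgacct
Rpl15, chr14:18270967-18270996, minus strand: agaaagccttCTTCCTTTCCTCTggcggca
Rpl28, chr7:4792955-4792984, plus strand: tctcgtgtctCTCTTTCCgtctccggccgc
Rpl35a, chr16:33056472-33056501, plus strand: gcttgccttcCTCTTTCCgccatcttggcg
Rpl38, chr11:114668570-114668599, plus strand: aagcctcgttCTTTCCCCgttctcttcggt
The tract of Rpl15 was 13 bases long and that of Rps27rt 6 bases. An annotated start that lies a few bases from the true one hides the tract, so a window without it says only that these letters are not at that base. Other short words were looked for on both strands of the whole window. CCGGAAG, a word that ETS factors can bind, was in 33.3% of the windows of the ribosomal protein genes and in 8.86% of all windows. CTCTTTCC was in 16.7% against 3.12% and ATGGCGG in 15.2% against 4.05%. GGGCGG was in 54.5% against 35.7%, and CTTTCC, which CTCTTTCC contains, in 50% against 26.6%. CACGTG, the word bound by Myc, was in 7.58% against 7.15%, and TATAAA in 10.6% against 13.6%. These are counts of letters over windows that partly overlap, with no statement on binding.

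The CD8+ T cell label was checked on 8 measured T cell markers, Cd3e, Cd3d, Cd3g, Cd8a, Cd8b1, Cd2, Cd5 and Zap70. Their mean log2 level per array was 10.62 to 10.85 in AML medium, 10.62 to 10.87 in DC medium and 10.63 to 10.82 in fresh medium, and none of the 8 was called in any comparison. Among the markers of other cells, only *Cd4* and *H2-Ab1* were called between AML and fresh medium. *Cd4* was higher in AML than in fresh medium by 0.79 (SE 0.18, limma adjusted p = 0.0150), and the mean of the 3 CD4 T cell markers measured ran from 6.39 to 6.99 in AML, 6.17 to 6.75 in DC and 6.02 to 6.56 in fresh medium. *H2-Ab1*, an MHC class II chain of antigen-presenting cells, was lower in AML than in fresh medium by a log2 difference of -1.33 (SE 0.30, adjusted p = 0.0168), and it was the only called gene of 12 myeloid and dendritic cell markers, whose mean ran from 4.25 to 4.56, 4.38 to 4.63 and 4.42 to 4.66 in AML, DC and fresh medium. Of the 12, 6 were above their fresh-medium mean in AML medium, against 45.6% of all genes, with a median difference of 0.01. At an unadjusted p under 0.05 (limma), 0 of the 12 were higher and 2 lower, against 7.11% and 8.78% of all genes. *H2-Ab1* was also lower in AML than in DC medium, with a log2 difference of -1.38 (SE 0.30, adjusted p = 0.0138). The means of 6 B cell markers (4.46 to 4.67, 4.36 to 4.64 and 4.48 to 4.90) and of 4 NK cell markers (3.84 to 4.57, 4.05 to 4.53 and 4.05 to 4.48) overlapped between the same 3 media. The part of other cells in the results below was not tested. In bulk RNA of this kind, fewer cells of a type and less RNA per cell cannot be told apart.

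The AML arrays did not behave alike for the ribosomal protein genes. The log2 level averaged over the 68 genes was 10.69, 10.64, 10.64, 10.73, 10.74, 10.57 and 10.63 in AML replicates 1 to 7. It ran from 10.53 to 10.63 over the DC arrays, with a median of 10.56, and from 10.55 to 10.62 over the fresh-medium arrays, with a median of 10.58. Thus 6 of the 7 AML arrays lay above every fresh-medium array, and AML replicate 6 lay among them. This replicate had the lowest AML value for 35 of the 68 genes (51.5%, against 15.8% of all genes), whereas replicates 4 and 5 had the highest for 20 and 22 (29.4% and 32.4%, against 16.5% and 16.2% of all genes). In replicate 4, 60 of the 68 genes were above their fresh-medium mean and 45 above every fresh-medium array. In replicate 6 these counts were 35 and 14. *H2-Ab1* had its lowest values in replicates 4 and 5, with 5.60 and 5.80, and its highest AML values in replicates 6 and 7, with 8.15 and 8.11. The mean of the 3 CD4 T cell markers was highest in AML replicates 1 and 2, with 6.99 and 6.98, against 6.67 and 6.86 in replicates 4 and 5, and it was lowest in replicate 6, with 6.39.

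**Figure D1:**
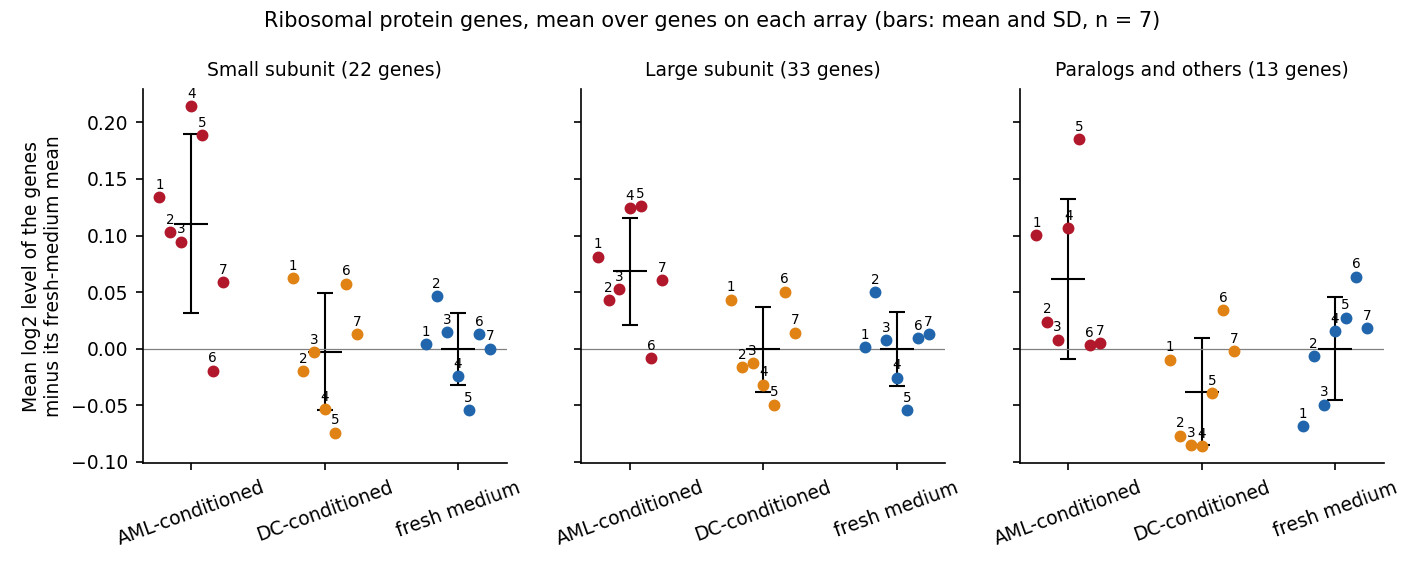
Mean log2 level of the small-subunit, large-subunit and paralog genes on each array, minus the mean of the same genes in fresh medium. Points are arrays numbered by replicate, and bars give the mean and SD of 7 arrays. In the small subunit AML replicates 4 and 5 stand highest and AML replicate 6 lies among the other media.

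Ribosomal protein genes were, as a group, slightly higher in AML medium than in fresh medium, and 1 of them passed the test. That gene was *Rps4x*, which rose 1.23-fold in AML medium. Its call was 1 of 68 genes (limma, adjusted p under 0.05 over all 19505 genes), against 2.77% of all genes called, so the share of called genes was not above the background. In the higher direction alone the background was 1.3%, and in the lower direction, where 0 of 68 were called, it was 1.48%. The small differences ran mostly one way. In AML medium 58 of the 68 genes lay above their fresh-medium mean (85.3%), against 45.6% of all genes, and the count was between 57 and 62 when the arrays were rescaled in 3 other ways. The count was 48 with replicates 1 to 3 only, 61 with replicates 4 to 7 only and 55 with AML replicates 4 and 5 left out. The median log2 difference was 0.09, or 1.07-fold, with quartiles at 0.05 and 0.13, against a median of -0.01 for all genes and -0.01 for the 811 genes with a mean log2 level of at least 10. At an unadjusted p under 0.05, 16 genes were higher and 0 lower, against 7.11% and 8.78% of all genes. These 68 differences are not independent measurements, because the genes were read on the same 14 arrays and shared the array differences described above.

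**Figure D2:**
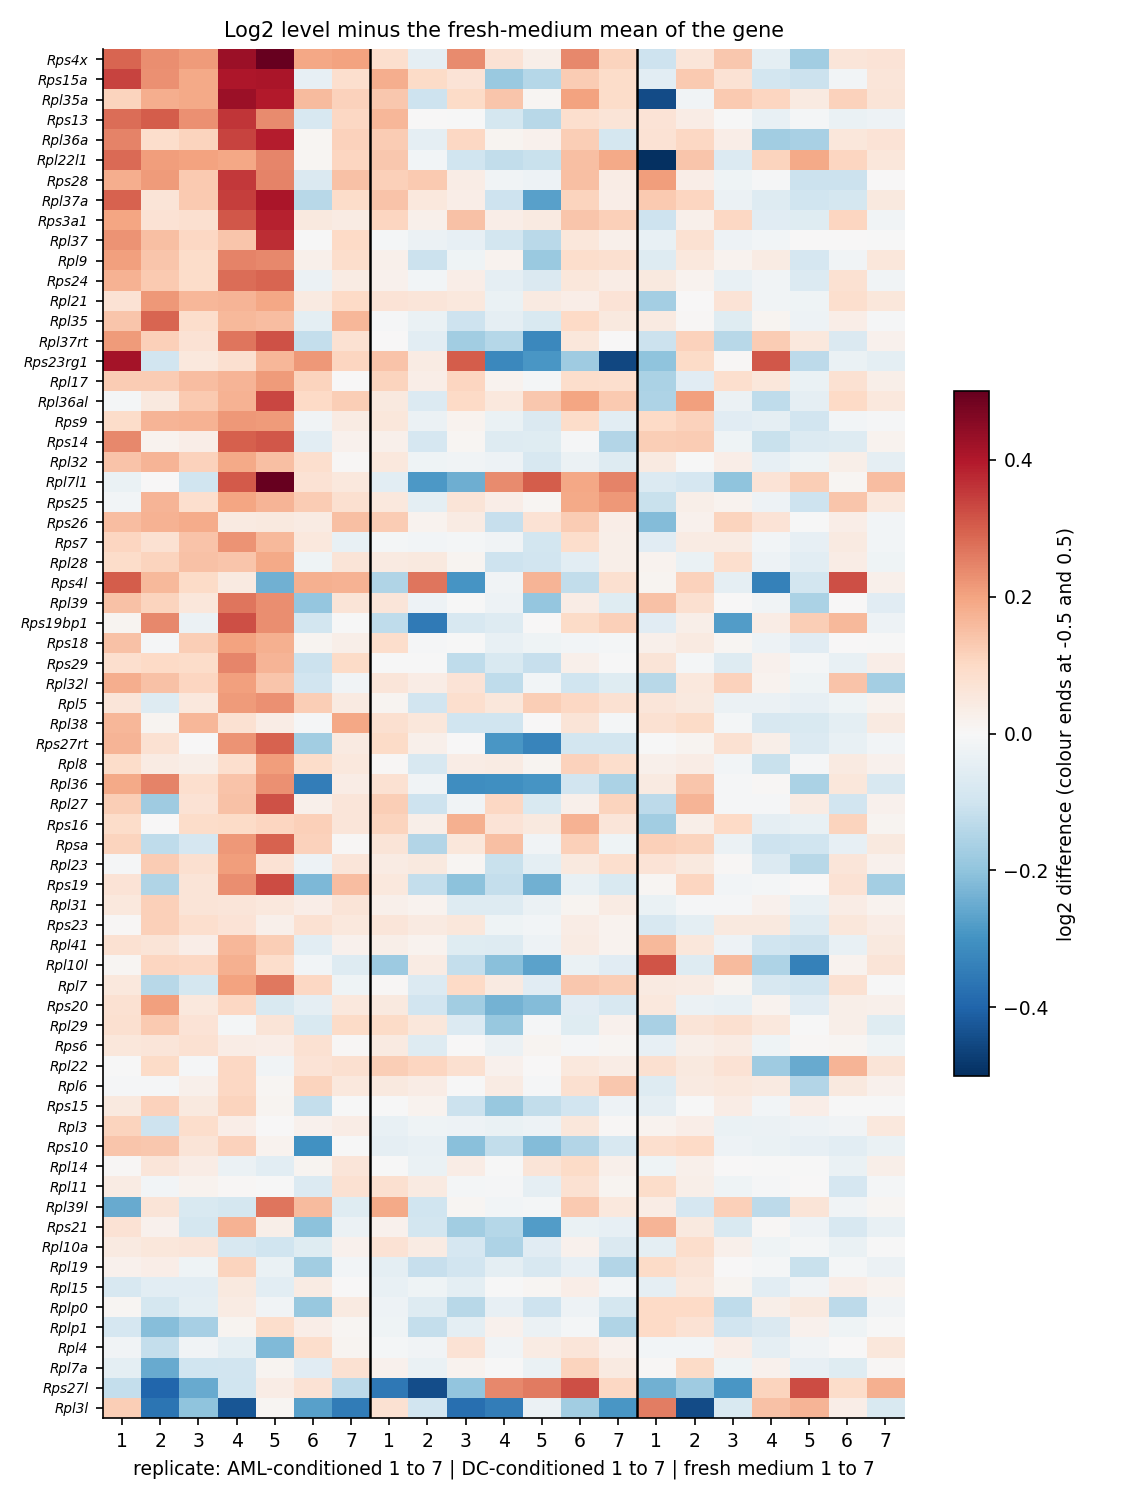
Log2 level of each of the 68 genes on each of the 21 arrays, minus the mean of that gene in fresh medium, with genes ordered by the difference between AML and fresh medium. Red is higher and blue lower, and AML replicates 4 and 5 are red over most genes while AML replicate 6 is mixed.

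*Rps4x* encodes a small-subunit protein and lies on the X chromosome at chrX:102184941-102189391 on GRCm38.p6, minus strand. Its log2 level had a lowest value of 10.65, a median of 10.69 and a highest value of 11.02 in AML medium. The same values were 10.41, 10.55 and 10.70 in DC medium and 10.29, 10.52 and 10.60 in fresh medium. All 7 AML arrays were above all 7 fresh-medium arrays, and the 2 highest AML values, 11.02 and 10.89, were those of replicates 5 and 4. *Rps4x* was the only member whose AML and fresh arrays did not overlap upward, against 0.354% of all genes, and 0 of 68 lay wholly below, against 0.441%. The mean was 10.76 ± 0.14 in AML, 10.56 ± 0.10 in DC and 10.46 ± 0.11 in fresh medium (SD, n = 7 each). The difference between AML and fresh medium was 0.30 (SE 0.07, limma adjusted p = 0.0219), and that between DC and fresh medium 0.10 (SE 0.07, adjusted p = 0.871). The call ended without AML replicate 4 (0.28, adjusted p = 0.0595), without AML replicate 5 (0.26, adjusted p = 0.0653) and without both (0.23, adjusted p = 0.167). It also ended with only the 2 media in the fit (0.30, adjusted p = 0.0584) and with array weights (0.24, adjusted p = 0.0541). Within replicates 1 to 3 the difference was 0.21 (adjusted p = 0.328) and within replicates 4 to 7 it was 0.37 (adjusted p = 0.131).

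The 250 bases before the annotated start of this gene are shown because it is the one member that passed the test, with GGGCGG or its reverse complement and the reverse complement of CTTTCC in capitals.
Rps4x, chrX:102189392-102189641, minus strand: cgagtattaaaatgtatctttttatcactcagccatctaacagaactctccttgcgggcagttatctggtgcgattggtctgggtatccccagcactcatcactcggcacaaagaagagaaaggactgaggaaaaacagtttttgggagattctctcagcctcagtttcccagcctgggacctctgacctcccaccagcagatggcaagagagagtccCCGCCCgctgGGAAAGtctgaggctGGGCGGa
GGGCGG began 7 bases before the start, its reverse complement CCGCCC began 32 and GGAAAG 22 bases before it. No tract stood at the annotated start of Rps4x, and *Rps4l*, annotated as a transcribed pseudogene, differed by 0.10 (SE 0.10, limma adjusted p = 0.683).

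The other small-subunit genes followed the same direction with smaller differences. Of the 22, 21 were above their fresh-medium mean in AML medium, with a median of 0.10, and 7 were higher at an unadjusted p under 0.05, against 45.6% above 0 and 7.11% of all genes. *Rps15a* had a lowest, median and highest log2 level of 10.54, 10.81 and 10.99 in AML medium, of 10.39, 10.67 and 10.76 in DC medium and of 10.47, 10.57 and 10.71 in fresh medium. AML and fresh medium overlapped through AML replicates 6 and 7, and the DC values spanned those of fresh medium. The difference was 0.23 (SE 0.08), with a limma adjusted p of 0.114, and it became 0.28 with an adjusted p of 0.0375 without AML replicate 6. *Rps13* had 10.33, 10.64 and 10.76 in AML medium, 10.27, 10.41 and 10.57 in DC medium and 10.37, 10.40 and 10.48 in fresh medium. Here 6 of 7 AML arrays were above all fresh-medium arrays and AML replicate 6 was below all of them. The difference of 0.20 (SE 0.07, adjusted p = 0.103) was 0.25 with an adjusted p of 0.0204 without that replicate.

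Further named members of the small subunit differed by less than *Rps13*. *Rps6*, the substrate of the S6 kinases downstream of mTORC1, differed by 0.05 (SE 0.05, limma adjusted p = 0.694), with AML arrays at 12.04 to 12.11 and fresh-medium arrays at 11.99 to 12.07. *Rps19* and *Rps26*, both mutated in the human anaemia named after Diamond and Blackfan, differed by 0.07 (SE 0.08, adjusted p = 0.754) and 0.11 (SE 0.06, adjusted p = 0.371). *Rps3a1*, which contacts initiation factors, differed by 0.16 (SE 0.06, adjusted p = 0.197), *Rps28* by 0.17 (SE 0.07, adjusted p = 0.187) and *Rps16* by 0.08 (SE 0.06, adjusted p = 0.526). *Rpsa*, also known as a laminin receptor precursor, differed by 0.08 (SE 0.07, adjusted p = 0.673), and *Rps10*, a protein of the small subunit's head, by 0.02 (SE 0.07, adjusted p = 0.914). None of these 8 passed the test, against 2.77% of all genes.

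The large subunit had a lower median of 0.07 between AML and fresh medium, and 0 of its 33 genes passed the test, against 2.77% of all genes. Of the 33, 26 were above the fresh-medium mean (45.6% of all genes) and 9 were higher at an unadjusted p under 0.05 (7.11% of all genes). *Rpl35a* had a lowest, median and highest log2 level of 8.98, 9.05 and 9.29 in AML medium, of 8.76, 8.96 and 9.07 in DC medium and of 8.42, 8.93 and 8.995 in fresh medium. The fresh-medium value of 8.42 was that of replicate 1 and lay far below the other 6. The difference was 0.23 (SE 0.08, limma adjusted p = 0.155) and it was 0.15 without that replicate. *Rpl36a* had 10.88, 10.99 and 11.26 in AML medium and 10.70, 10.93 and 10.97 in fresh medium, and the groups overlapped. Its difference was 0.19 (SE 0.07, adjusted p = 0.174).

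Of the 10 members with a difference below 0, 7 were in the large subunit. *Rplp0* and *Rplp1*, the stalk proteins that recruit elongation factors, differed by -0.04 (SE 0.06, limma adjusted p = 0.841) and -0.05 (SE 0.06, adjusted p = 0.791). *Rpl4*, which lines the exit tunnel, differed by -0.05 (SE 0.05, adjusted p = 0.758) and *Rpl7a* by -0.07 (SE 0.06, adjusted p = 0.628). *Rpl5* and *Rpl11*, which can leave the ribosome and bind Mdm2, differed by 0.09 (SE 0.06, adjusted p = 0.462) and 0.01 (SE 0.05, adjusted p = 0.965). *Rpl22*, which mouse T cells need for their development in the thymus, differed by 0.05 (SE 0.06, adjusted p = 0.803). *Rpl3*, close to the catalytic centre, differed by 0.03 (SE 0.05, adjusted p = 0.871), *Rpl29* by 0.05 (SE 0.06, adjusted p = 0.755), *Rpl38*, which in mouse embryos affects translation of Hox mRNAs, by 0.09 (SE 0.06, adjusted p = 0.472) and *Rpl39* by 0.10 (SE 0.07, adjusted p = 0.536). None of these 11 passed the test, against 2.77% of all genes.

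**Figure D3:**
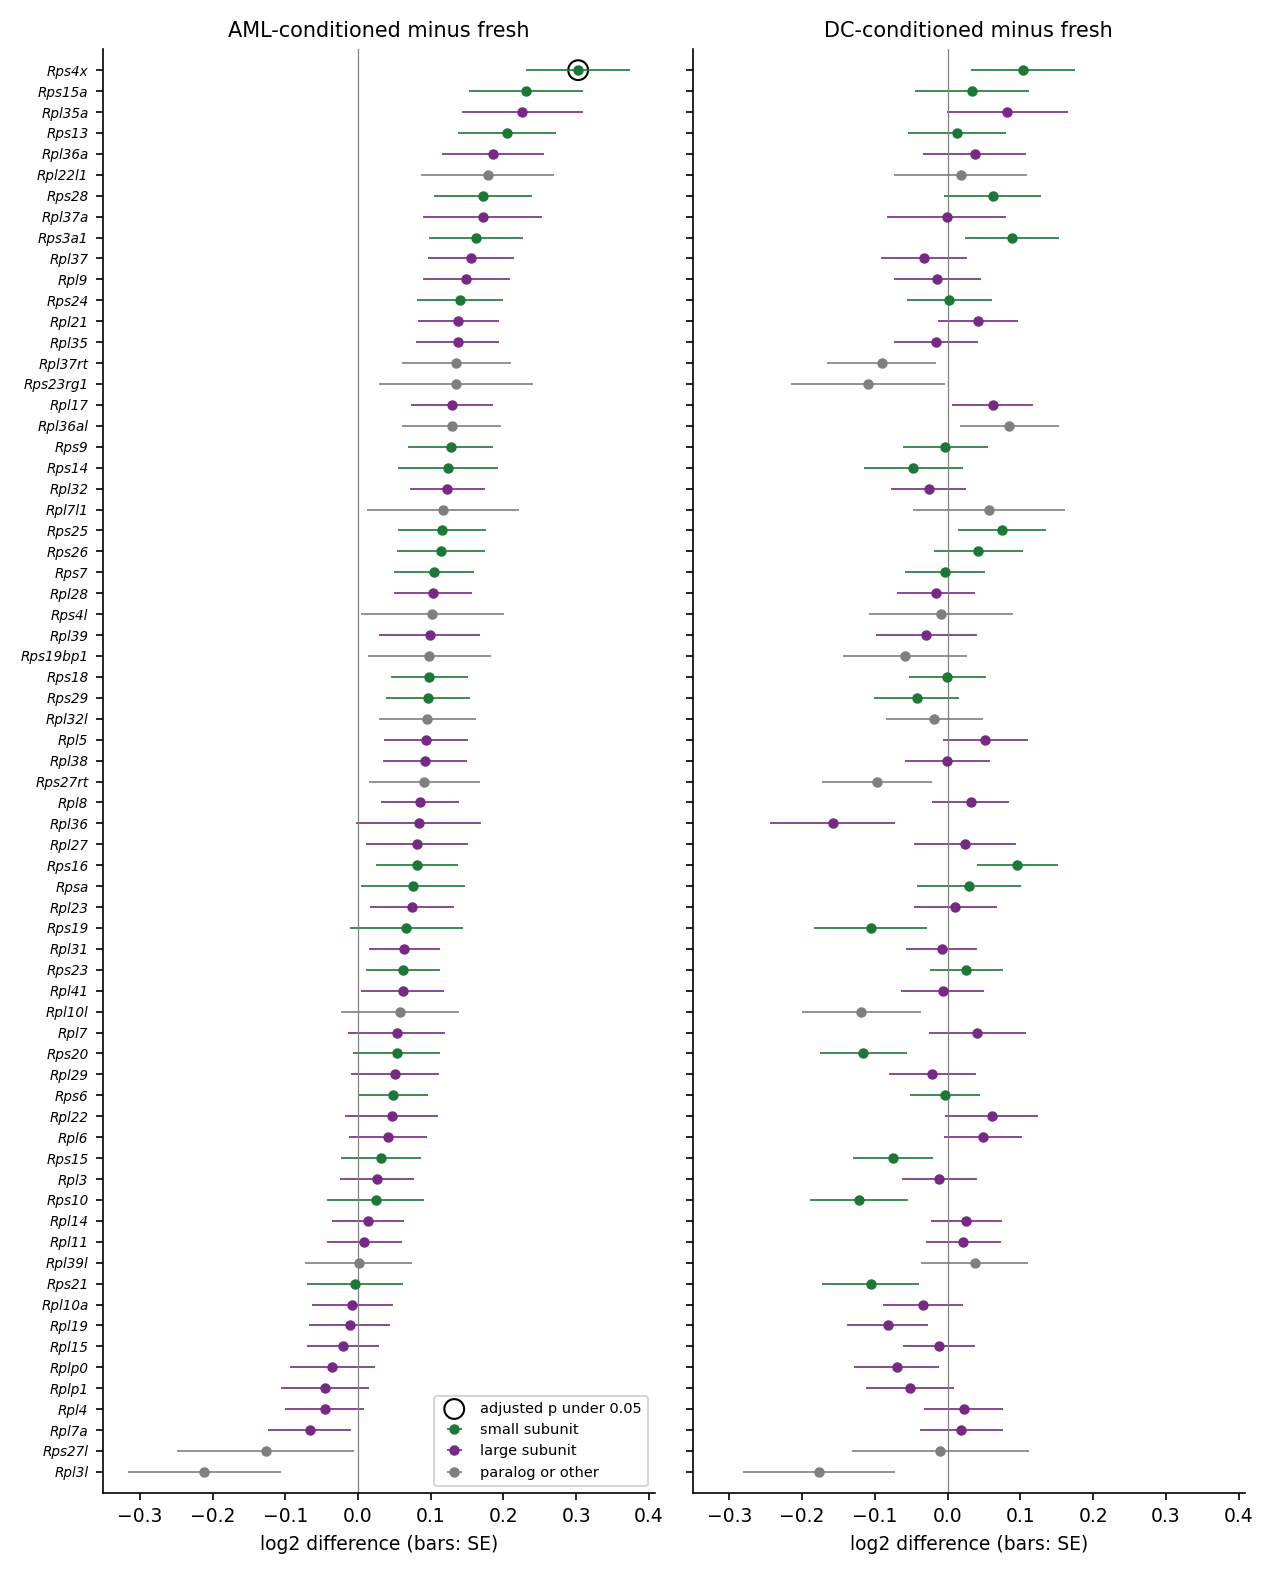
Log2 difference of each of the 68 genes between AML and fresh medium (left) and between DC and fresh medium (right), with standard errors, ordered by the left panel and coloured by subunit. Only *Rps4x* is ringed as called, at 0.30, and the right panel scatters on both sides of 0 between -0.18 and 0.10.

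Of the 13 paralogs and others, 11 were above the fresh-medium mean in AML medium, against 45.6% of all genes, and the median was 0.10. None passed the test and 0 had an unadjusted p under 0.05, against 2.77% and 15.9% of all genes (limma). *Rpl22l1*, the paralog of *Rpl22*, had a lowest, median and highest log2 level of 9.04, 9.23 and 9.32 in AML medium and of 8.496, 9.14 and 9.22 in fresh medium, and the groups overlapped. Its difference of 0.18 (SE 0.09, limma adjusted p = 0.353) was 0.09 without fresh-medium replicate 1. *Rpl3l*, a paralog used in mouse muscle in place of *Rpl3*, had 3.83, 3.99 and 4.38 in AML medium and 3.81, 4.29 and 4.51 in fresh medium, with overlap, and differed by -0.21 (SE 0.10, adjusted p = 0.330). *Rpl10l* and *Rpl39l*, paralogs known from the testis, differed by 0.06 (SE 0.08, adjusted p = 0.807) and 0.00 (SE 0.07, adjusted p = 0.998), and *Rps23rg1*, a retrogene of *Rps23*, by 0.13 (SE 0.11, adjusted p = 0.589). The arrays' values for *Rpl3l*, *Rpl39l* and *Rps23rg1* average 4.13, 3.57 and 4.10 and may lie near the floor of the signal, where presence was not assessed. *Rpl37rt* (0.14, SE 0.08), *Rpl32l* (0.10, SE 0.07), *Rps27rt* (0.09, SE 0.08) and *Rpl36al* (0.13, SE 0.07) resemble expressed members closely, and the probes may read both copies. *Rps19bp1*, which binds Rps19 and the deacetylase Sirt1, differed by 0.10 (SE 0.08, adjusted p = 0.635).

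*Rps27l*, a paralog of *Rps27* known in human cells as a target of p53, varied most of all members, with an SD within groups of 0.25. Its log2 level in DC medium was 7.81 to 8.06 in replicates 1 to 3 and 8.36 to 8.58 in replicates 4 to 7. In fresh medium it was 7.97 to 8.08 in replicates 1 to 3 and 8.35 to 8.58 in replicates 4 to 7, without overlap in either medium. In AML medium the same sets overlapped, at 7.86 to 8.14 and 8.13 to 8.33. *Rpl7l1*, a relative of *Rpl7*, was lower in replicates 1 to 3 in all 3 media: 8.36 to 8.46 against 8.52 to 8.98 in AML, 8.18 to 8.41 against 8.66 to 8.76 in DC and 8.26 to 8.39 against 8.47 to 8.62 in fresh medium. This split by replicate number was noticed in the values, and nothing in the labels sets the numbers apart. It was not confined to these 2 genes: in DC medium the list mean of the mitochondrial ribosomal proteins was 7.75 to 7.78 in replicates 1 to 3 and 7.97 to 8.03 in replicates 4 to 7, and that of the T cell markers was 10.84 to 10.87 and 10.62 to 10.67. In fresh medium the T cell markers averaged 10.81 to 10.82 and 10.63 to 10.67. The mean over the 68 ribosomal protein genes overlapped between the 2 sets in every medium. With the sets as a block, *Rps4x* was still the 1 called member between AML and fresh medium (adjusted p = 0.0145), while 1026 of all genes were called, against 541 without the block. Between AML and fresh medium *Rps27l* differed by -0.13 (SE 0.12, limma adjusted p = 0.680) and *Rpl7l1* by 0.12 (SE 0.10, adjusted p = 0.648).

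**Figure D4:**
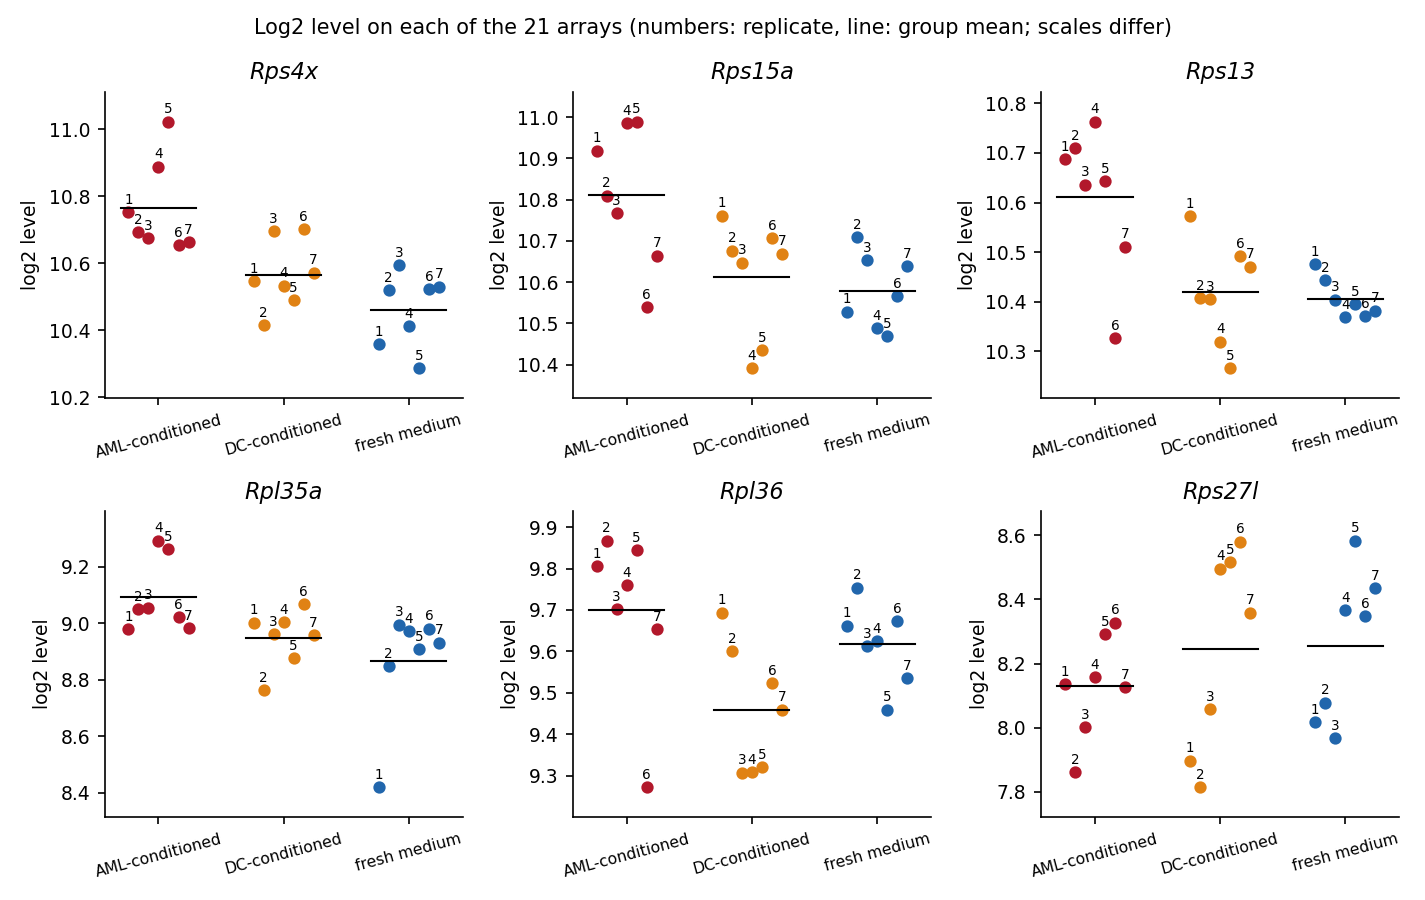
Log2 level of *Rps4x*, *Rps15a*, *Rps13*, *Rpl35a*, *Rpl36* and *Rps27l* on each array, numbered by replicate, with a line at the group mean and a separate scale for each gene. *Rps4x* does not overlap between AML and fresh medium, and *Rps27l* is lower in replicates 1 to 3 of DC and fresh medium. AML replicate 6 is the lowest AML array for *Rps4x*, *Rps15a*, *Rps13* and *Rpl36*.

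Between DC and fresh medium 0 of 68 ribosomal protein genes passed the test (limma), against 0% of all 19505 genes. At an unadjusted p under 0.05 there were 0 higher and 0 lower, against 2.13% and 4.29% of all genes, or 6.41% in both directions. The DC arrays lay wholly above the fresh-medium arrays for 0 members and wholly below for 0, against 0.0359% and 0.0769% of all genes. The median difference was -0.003, and 30 of 68 genes lay above the fresh-medium mean, against 45.2% of all genes. This count was 20, 29 and 49 under the 3 rescalings, so the median has no settled side. The differences ran from -0.18 for *Rpl3l* to 0.10 for *Rps4x*, with standard errors of 0.05 to 0.12. *Rpl36*, a large-subunit protein, had a lowest, median and highest log2 level of 9.31, 9.46 and 9.69 in DC medium and of 9.46, 9.62 and 9.75 in fresh medium. The groups overlapped, and it differed by -0.16 (SE 0.09, adjusted p = 0.819). *Rps10* differed by -0.12 (SE 0.07, adjusted p = 0.820), *Rpl10l* by -0.12 (SE 0.08, adjusted p = 0.871) and *Rps16* by 0.10 (SE 0.06, adjusted p = 0.828).

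AML medium against DC medium shares its AML arrays with the first comparison. Ribosomal protein genes were again mostly higher, and 0 of 68 passed the test (limma), against 2.39% of all genes, 1.13% higher and 1.26% lower. The AML arrays lay wholly above the DC arrays for 0 members and wholly below for 0, against 0.436% and 0.379% of all genes. At an unadjusted p under 0.05, 22 were higher and 0 lower, against 6.82% and 7.44% of all genes. In AML medium 57 of 68 genes lay above their DC mean, against 51.9% of all genes, with a median difference of 0.09. Beside this, *H2-Ab1* was the 1 called gene of the 12 myeloid and dendritic cell markers, and the 3 CD4 T cell markers were higher at an unadjusted p under 0.05, with 0 called and a median of 0.35. Their part in the result was not tested. The smallest adjusted p belonged to *Rpl37*, with 11.15, 11.29 and 11.52 as lowest, median and highest log2 level in AML medium and 11.02, 11.12 and 11.21 in DC medium. The groups overlapped, and the difference was 0.19 (SE 0.06, adjusted p = 0.0984). *Rpl36* differed by 0.24 (SE 0.09, adjusted p = 0.154), with AML arrays at 9.27 to 9.87, the lowest of them replicate 6, against DC arrays at 9.31 to 9.69. *Rps4x* differed by 0.20 (SE 0.07, adjusted p = 0.161), *Rps13* by 0.19 (SE 0.07, adjusted p = 0.148), *Rpl37rt* by 0.23 (SE 0.08, adjusted p = 0.120) and *Rps23rg1* by 0.24 (SE 0.11, adjusted p = 0.271). Without AML replicate 6, 4 genes passed: *Rpl36* (0.31, adjusted p = 0.0149), *Rps13* (0.24, adjusted p = 0.0271), *Rpl37rt* (0.27, adjusted p = 0.0370) and *Rpl37*. In that fit 4.02% of all genes were called, against 2.39% with all arrays. The lowest differences were -0.12 for *Rps27l* (SE 0.12, adjusted p = 0.748), -0.09 for *Rpl7a* (SE 0.06, adjusted p = 0.545) and -0.07 for *Rpl4* (SE 0.05, adjusted p = 0.643).

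The members varied little within a medium. Their median SD within groups was 0.08, against 0.18 for all genes and 0.12 for the 811 genes at a log2 level of at least 10. The large subunit had 0.07, the small subunit 0.09 and the paralogs 0.16. These sets were not matched for level: their mean log2 levels in fresh medium were 11.44, 11.20 and 7.37. The part of the level in the spread was not tested. The 13 genes with a tract at an annotated start had a median difference of 0.09 between AML and fresh medium and the 42 with windows lacking it 0.09. Between DC and fresh medium the medians were -0.01 with the tract and 0.01 without, and between AML and DC medium 0.11 and 0.07.

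Other parts of the translation machinery were set beside the members, and few of their genes passed the test, for which the background between AML and fresh medium is 2.77% of all genes called and 15.9% at an unadjusted p under 0.05. Of 38 measured ribosome biogenesis factors, which process ribosomal RNA in the nucleolus, 0 passed in either direction between AML and fresh medium (limma), while 10 were higher and 1 lower at an unadjusted p under 0.05. Their median was 0.18 with 32 above 0, against 45.6% of all genes, and *Nolc1*, a nucleolar phosphoprotein, had 0.68 (SE 0.20, adjusted p = 0.0608). Between DC and fresh medium 32 of the 38 were above 0 too, against 45.2% of all genes, with a median of 0.07. Over these factors the array means were also highest in AML replicates 4 and 5, at 0.46 and 0.57 above the fresh-medium mean, with the other 5 AML arrays between -0.03 and 0.20. Of 76 mitochondrial ribosomal proteins, which serve the separate ribosome of mitochondria, 0 were higher and 1 lower: *Mrpl39*, by a log2 difference of -0.23 (SE 0.06, adjusted p = 0.0470). Their median was -0.04 and 28 were above 0. At an unadjusted p under 0.05 (limma), 2 of the 76 were higher and 10 lower, against 7.11% and 8.78% of all genes.

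Translation factors gave 1 called gene of 42, near the background of 2.77%. Of 31 initiation factors *Eif4g3*, a scaffold of the cap-binding complex, rose by 0.33 (SE 0.08, limma adjusted p = 0.0339) in AML over fresh medium, and the list median was 0.01. At an unadjusted p under 0.05, 7 of the 31 were higher and 0 lower, against 7.11% and 8.78% of all genes. Of 11 elongation and termination factors 0 passed, with 1 higher at an unadjusted p under 0.05 and a median of 0.07. *Eef1a1* and *Eef2*, whose mRNAs carry a TOP tract, differed by 0.01 (SE 0.05, adjusted p = 0.947) and 0.00 (SE 0.05, adjusted p = 0.981). The 16 other TOP mRNAs had a median of 0.01 and 0 passed, with 3 higher at an unadjusted p under 0.05. Among 21 genes of mTORC1 and its TOP regulators 1 passed, against the same background, *Ddit4*, an inhibitor of mTORC1, which fell by 0.60 on the log2 scale in AML against fresh medium (SE 0.14, adjusted p = 0.0212). At an unadjusted p under 0.05, 1 of the 21 was higher and 4 lower, against 7.11% and 8.78% of all genes. *Larp1*, which binds TOP mRNAs, differed by 0.12 (SE 0.08, adjusted p = 0.485). *Fau*, the small-subunit protein whose symbol lies outside the naming rule, differed by 0.00 (SE 0.06, adjusted p = 0.9995).

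**Figure D5:**
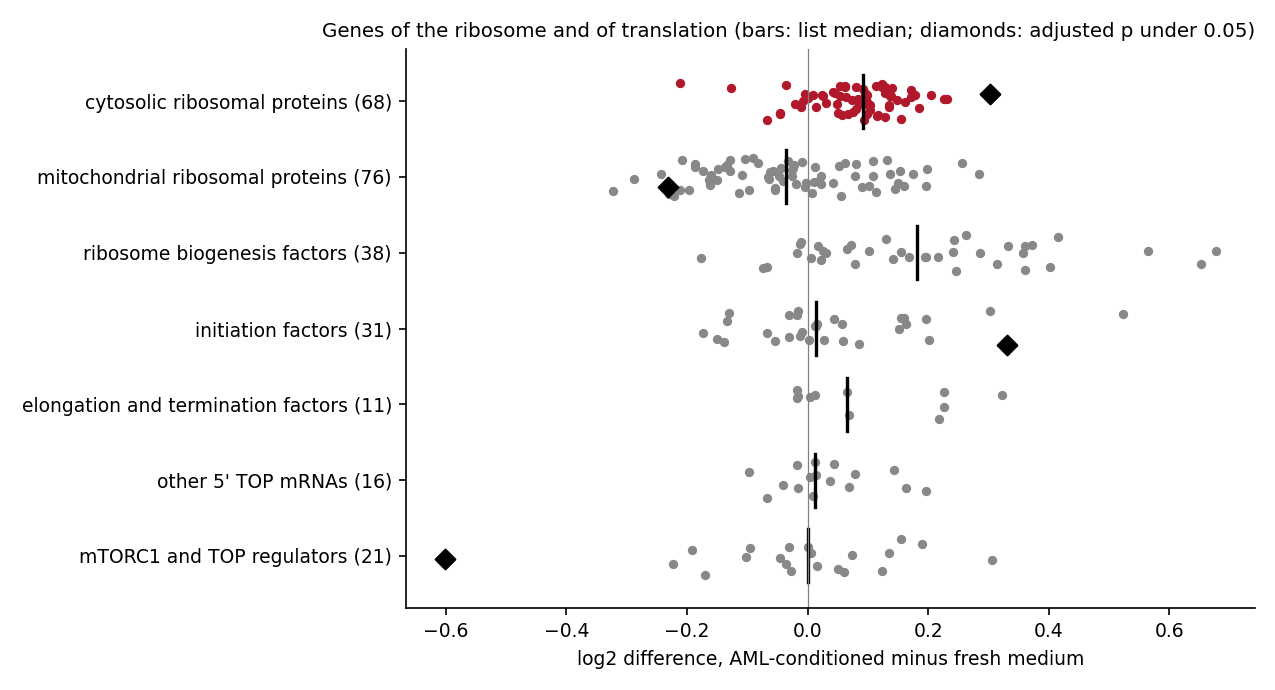
Log2 difference between AML and fresh medium for each gene of 7 lists, with the number of genes in brackets, a bar at the list median and diamonds for called genes. The cytosolic ribosomal proteins lie between -0.21 and 0.30 with a median of 0.09, the biogenesis factors spread up to 0.68, and *Rps4x*, *Mrpl39*, *Eif4g3* and *Ddit4* are called.

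Between DC and fresh medium 0 genes of these lists passed, against 0% of all genes. The unadjusted p was under 0.05 for 0 biogenesis factors and 0 mitochondrial ribosomal proteins, for 1 initiation and 1 elongation factor, both higher, and for 2 mTORC1 genes, 1 in each direction (limma). Over all genes it was under 0.05 for 6.41%, with 2.13% higher and 4.29% lower. Between AML and DC medium 3 genes of these lists passed, against 2.39% of all genes. *Eif4g3* was higher by 0.35 (SE 0.08, adjusted p = 0.0256). *Wdr12*, a factor in maturation of the large subunit, was lower, with a log2 difference of -0.31 (SE 0.07, adjusted p = 0.0239). *Aamp*, on the list of ribosomal protein chaperones, was lower with -0.41 (SE 0.10, adjusted p = 0.0335).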

How the data were processed

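RNA of 21 samples was read on 1-colour Affymetrix arrays. The authors deposited log2 levels, 1 for each transcript cluster. The submitters' processing notes name RMA and oligo, an R package; versions are not given in the sources used here. RMA subtracts background, equalises the arrays' distributions, which can hide a shift shared by most genes, and gives no signal over background. Of 22203 rows 19572 carried 1 symbol, 0 several and 2631 none; 55 symbols had several rows, of which the one with the highest mean was kept, leaving 19505 genes, with no filter. Symbols were checked against RefSeq for GRCm38.p6, which changed 0. The rule left out 1 pseudogene and 6 S6 kinase symbols. Probes may also read pseudogenes and close copies, of which ribosomal proteins have many, so single members are uncertain to that extent. Levels of different genes are not compared.

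Group means were compared with limma 3.58.1 under R 4.3.3 (lmFit, eBayes, all 21 arrays in 1 fit, no covariates, two-sided), with Benjamini-Hochberg adjustment over all genes. Called means an adjusted p below 0.05. The number of arrays limits the precision. The code was tested on simulated data. Members and lists were chosen with earlier results of these data known, and the class of paralogs was completed with 3 genes (Rpl32l, Rpl37rt, Rps23rg1) after the table was seen. Members were named when called, when among the 4 highest or 4 lowest differences of a comparison, when on a list of 25 well-studied members (19 measured), or when paralogs, 37 in all. Members outside this rule, Rps28 and Rpl37 among them, were chosen after their values were seen, as were Nolc1, Larp1, Eef1a1 and Eef2 of the other lists. Called members of the other lists and Fau were named too.

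The 7 samples of a medium are biological replicates per the labels. Alternatives were the replicate number or replicates 1 to 3 and 4 to 7 as a block, each of these sets alone, leaving out arrays, the 2 groups alone, further quantile normalization, centring on the array median, a filter at the 25th percentile, the mean of rows, trend and robust eBayes, array weights, and members without paralogs. Centring on the other genes at a log2 level of 10 or more was added after the data were seen.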

Additional observations from a re-analysis of the deposited data

Results flagged for a closer look

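In 5 of 114 sets of 7 arrays that were checked, 1 array stood far from the other 6 of its medium by Dixon's test; chance gives about 1 in 20. Fresh-medium replicate 1 was low in 3 of them: *Rpl22l1* at 8.496, with the others between 8.965 and 9.221, *Rpl35a* at 8.419, with the others between 8.849 and 8.995, and *Rps26* at 11.12, with the others between 11.32 and 11.45. AML replicate 6 was low in the other two: *Rpl36* at 9.272, with the others between 9.654 and 9.867, and *Rps10* at 11.15, with the others between 11.45 and 11.59.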

How the results depend on the processing

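The median log2 difference of the ribosomal protein genes stayed between 0.06 and 0.12 for AML over fresh medium and between 0.07 and 0.12 for AML over DC medium under 35 alternatives, and between -0.03 and 0.03 for DC over fresh medium. Called genes between AML and fresh medium, 1 as reported, became 0 with replicates 1 to 3 only, with replicates 4 to 7 only, with AML replicates 4 and 5 left out, with only the 2 groups compared and with array weights, and ran from 0 to 3 when 1 array was left out. The share of all genes called there, 2.77%, was 1.12% without AML replicate 5, 1.28% without AML replicate 4 and 3.98% without AML replicate 6. The adjusted p of *Rps4x* ran from 0.00825 to 0.328 over 34 alternatives, with 27 calls. Between AML and DC medium the called genes, 0 as reported, were 2 with trend and robust eBayes (*Rpl32*, *Rpl37*), where 2.54% of all genes were called. They were 0 to 4 when 1 array was left out. The 4 came without AML replicate 6, where 4.02% of all genes were called. Between DC and fresh medium the called members were 0 throughout. Same-numbered arrays of different media deviated together (r above 0.1) in 13 of 21 pairs, with r from -0.109 to 0.364, and, as a hint from the data rather than the design, an array correlated best with its own number in 18 of 42 cases, against 6 if the numbers carried nothing. Because not every pair was above 0.1 and the labels give no shared source, the numbers were not taken as pairs. With the replicate number as a block, *Rps4x* remained the 1 called gene between AML and fresh medium, and no other member's call changed, while the calls over all genes went to 1012, against 541. The 111 results of named genes under 34 alternatives gave 7 lost calls, 5 gained and 0 reversed, and 121 changes of sign where neither fit made a call. RMA values hold no signal over background, so the lowest members have no known limit of detection. The causes of these changes were not tested.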
